A study of Homo sapiens with 15 samples.

Results

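Apicobasal polarity complexes are the Par, Crumbs and Scribble protein assemblies that give an epithelial cell its apical and basolateral sides. Their transcripts were followed here through 10 genes chosen by symbol: PARD3, PARD3B, PARD6B and PRKCI (Par), CRB3, PALS1 and PATJ (Crumbs), and SCRIB, DLG1 and LLGL2 (Scribble). All 10 were found among the 60557 Ensembl genes shared by every count file, and all 10 passed the filter on low counts, which left 13157 genes. The libraries came from Caco-2, a human colorectal carcinoma line that forms a polarised, enterocyte-like sheet. Monolayers were unexposed (control) or received a dishwasher rinse aid, a surfactant-based liquid, diluted 1:10000 or 1:40000 for 24 h, with 5 libraries of polyadenylated RNA per group. Nothing in the labels states that replicates were separate cultures, so each p measures the spread between these libraries, which may be technical.

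In epithelia the Par and Crumbs modules set the apical domain, and the Scribble module sets the basolateral domain and opposes them. The Par module joins the scaffold PAR3, the adaptor PAR6 and atypical protein kinase C, and is switched on by the small GTPase CDC42. The Crumbs module joins the short membrane protein CRB3 to the scaffolds PALS1 and PATJ at the tight junction, while Scribble proteins keep apical proteins out of the lateral membrane. In intestinal cells these modules position the junctional belt and the brush border.

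Control libraries held between 4333226 and 14230853 counts, 1:10000 libraries between 5489425 and 9555632, and 1:40000 libraries between 2551839 (replicate 2) and 172092447 (replicate 1). Per the file headers, the controls were aligned with RNA STAR and all rinse aid libraries with HISAT2, and the gene models differed too, so aligner, annotation and exposure cannot be told apart in either comparison with control. The comparison between the dilutions shares aligner and annotation. In the controls and at 1:10000 the counts of replicates 3, 4 and 5 lay closer to each other than to those of replicates 1 and 2 (chi-square per degree of freedom 1.73 to 2.15 against 4.69 to 8.34, and 1.92 to 2.51 against 4.57 to 8.46), and no label explains this. At 1:40000 these ranges overlapped (2.61 to 4.83 against 4.33 to 48.9), and the value for replicates 1 and 2 with each other was 3.46. The measure rises with depth, and depth differed 67.4-fold within that group, so the overlap does not show that the split is missing there. Of 8 epithelial and enterocyte markers, 7 were expressed and KRT20 was at most 0.2 CPM in any library. Of the markers of leukocytes, fibroblasts, endothelium and squamous epithelium, 4 of 6, 2 of 6, 3 of 4 and 4 of 4 averaged under 1 CPM, and PTPRC and KDR had 0 counts throughout. In control, 1:10000 and 1:40000 libraries the fibroblast list summed to 129-153, 59.3-78.4 and 104-134 CPM. In that list COL1A1 averaged 92.2, 35.3 and 81.2, PDGFRB 27.02, 9.63 and 12.8, COL3A1 18.1, 21.9 and 19.02 and LUM 1.15, 1.47 and 1.92. COL1A2 averaged 0.044, 0.031 and 0.005 CPM, and DCN had 0 counts outside the 1:40000 group. The leukocyte list summed to 13.9-21.6, 8.75-11.6 and 16-23.6 CPM, the endothelial list to 3.77-10.8, 3.26-4.27 and 7.41-11.6, the squamous list to at most 0.222, 0.915 and 0.382, and the epithelial list to 9405-11138, 11671-13765 and 9544-10691. Within the epithelial list the keratins were higher at 1:10000 than in the controls (means of 5445 against 4078 CPM for KRT8 and 3977 against 2384 for KRT18), CDH1 (1181 against 1583), VIL1 (475 against 759.9) and CDX2 (63 against 172) were lower, and EPCAM (872 against 884) and CDH17 (694 against 693) were close. All libraries are labelled as the Caco-2 line, so these lists describe RNA of a cultured line and do not count cell types. The part of these shifts in the results was not tested, and in bulk RNA fewer cells in a given state and less RNA per cell cannot be told apart.

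Levels are CPM, counts scaled to a common library total with the trimmed mean of M-values (TMM), ± SD over 5 libraries. Each log2 fold change carries its approximate SE, and p-values come from the quasi-likelihood test of edgeR, adjusted by Benjamini-Hochberg over all 13157 genes, with a call at an adjusted p under 0.05. At 1:10000 against control, 6 members were called higher and 2 lower, where 71% of all tested genes were called (34.8% higher and 36.2% lower). At 1:40000 against control, 5 were higher and 2 lower, against a background of 52.1% called (26.1% higher and 26% lower). Between the dilutions, 6 were higher at 1:10000 and 1 lower, where 57.3% of all genes were called (28.3% higher and 29% lower). The groups did not overlap for 8, 5 and 5 members, against 57.8%, 36.3% and 40.3% of all tested genes. Without the count filter the share of calls that were higher moved from 50.1% to 60.5% at 1:40000 against control. Counts of called members near these shares are no result about the members as a set. The median member log2 fold change was 0.39, 0.18 and 0.28 in the same order, beside medians of -0.02, -0.00 and -0.01 over all tested genes.

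**Figure D1:**
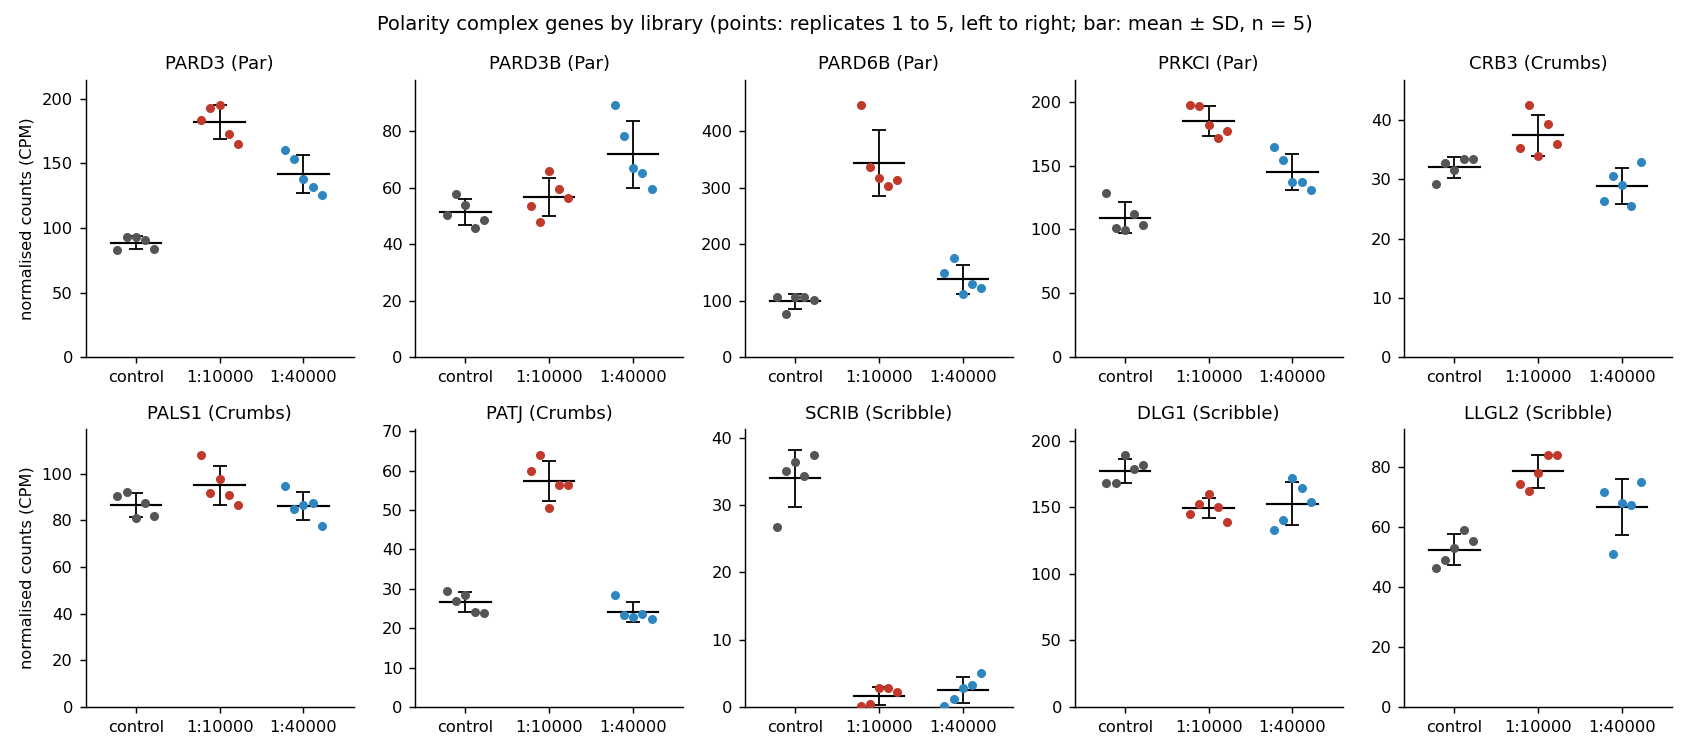
Normalised counts (CPM, vertical axis from 0) of the 10 polarity genes in each of 15 libraries, by group, with the mean ± SD. PARD6B and PATJ stand out at 1:10000, PARD3 and PRKCI step up from control to 1:40000 to 1:10000, and SCRIB is close to 0 in both rinse aid groups.

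In the Par module PARD6B, PARD3 and PRKCI rose at both dilutions, and PARD3B at 1:40000. PARD6B, the adaptor that binds atypical protein kinase C and CDC42, rose to 344 ± 58.8 CPM at 1:10000 from 99.2 ± 13.3 in the controls. PARD3, the scaffold that recruits the kinase to the junction, rose from 88.7 ± 4.80 to 182 ± 13, and PRKCI, the iota form of atypical protein kinase C, rose from 109 ± 12 to 185 ± 11.8. All 3 were also higher at 1:10000 than at 1:40000, where they stood at 138 ± 25.6, 142 ± 14.8 and 145 ± 14.1.

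PARD6B (ENSG00000124171, chromosome 20, 50731544 to 50756795, plus strand, GENCODE 29 on GRCh38) read 106, 75.7, 106, 106 and 102 CPM in control replicates 1 to 5. It read 447, 337, 318, 304 and 313 CPM at 1:10000, and 149, 176, 111, 130 and 122 at 1:40000. Every 1:10000 library lay above every other library, and the 1:40000 libraries lay above all controls by a narrow margin. Its log2 fold change was 1.80 ± 0.14 at 1:10000 against control (adjusted p = 1.01e-08), 0.46 ± 0.14 at 1:40000 against control (adjusted p = 0.0117) and 1.34 ± 0.14 between the dilutions (edgeR adjusted p = 5.88e-07). Without replicates 1 and 2 of the 1:40000 group, its deepest and shallowest libraries, the 1:40000 call against control ended (0.29, edgeR adjusted p = 0.102). With replicates 3 to 5 of every group alone, a setting chosen after seeing the data, that change was 0.21 and called (adjusted p = 0.00224), and the change between the dilutions was 1.38 (edgeR adjusted p = 4.4e-24).

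PARD3 (ENSG00000148498, chromosome 10, 34109560 to 34815325, minus strand) read 83.1, 93.2, 92.7, 90.4 and 84.1 CPM in the controls. At 1:10000 it read 183, 193, 195, 173 and 165 CPM, and at 1:40000 it read 160, 154, 138, 132 and 125. The 3 groups did not overlap, with the controls lowest and 1:10000 highest. On the log2 scale PARD3 rose by 1.03 ± 0.07 at 1:10000 and 0.67 ± 0.07 at 1:40000 against control (adjusted p = 2.7e-12 and 2.07e-08), and 0.36 ± 0.07 between the dilutions (edgeR adjusted p = 9.48e-05). The PARD3 gene model changed version between the control and rinse aid files (16 to 17).

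PRKCI (ENSG00000163558, chromosome 3, 170222365 to 170305981, plus strand) followed the same order. Its 5 control libraries read 129, 101, 99.6, 112 and 104 CPM, the 1:10000 libraries 197, 196, 182, 171 and 177, and the 1:40000 libraries 164, 154, 137, 137 and 131. Here too the groups did not overlap. The log2 fold changes were 0.76 ± 0.08, 0.41 ± 0.08 and 0.35 ± 0.07 in the order of the comparisons above (edgeR adjusted p = 2.18e-09, 7.16e-05 and 0.000256). Its paralog PRKCZ, the zeta form, was less abundant per length (5.51 ± 0.46 CPM per kb of exon in the controls against 18.7 ± 2.06 for PRKCI) with 12.3% of its exon length shared with antisense genes, and rose by 0.31 ± 0.08 at 1:10000 (edgeR adjusted p = 0.000822), with 0.08 ± 0.08 at 1:40000 (adjusted p = 0.391).

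PARD3B, a PARD3 paralog, did not follow PARD3. PARD3B (ENSG00000116117, chromosome 2, 204545793 to 205620162, plus strand) read 50.3, 58, 53.9, 45.8 and 48.7 CPM in the controls, 53.7, 47.8, 66.1, 59.5 and 56.3 at 1:10000, and 89.3, 78.3, 67, 65.3 and 59.5 at 1:40000. The 1:40000 libraries lay above all controls, while the 1:10000 libraries overlapped both other groups. Its log2 fold change was 0.49 ± 0.10 at 1:40000 against control (adjusted p = 0.000326), 0.15 ± 0.11 at 1:10000 (adjusted p = 0.204), and -0.34 ± 0.10 between the dilutions (edgeR adjusted p = 0.0066). The difference between the dilutions depended on replicates 1 and 2. Without those of 1:40000 it was -0.16 (edgeR adjusted p = 0.138), and with replicates 3 to 5 of every group it was -0.07 (edgeR adjusted p = 0.437). Replicates 1 and 2 lay above replicates 3 to 5 at 1:40000 (78.3 to 89.3 against 59.5 to 67 CPM) and below them at 1:10000 (47.8 to 53.7 against 56.3 to 66.1). With replicates 3 to 5 alone PARD3B was also called higher at 1:10000 against control (0.34, edgeR adjusted p = 0.000302). The PARD3B gene model changed version as well (18 to 19).

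**Figure D2:**
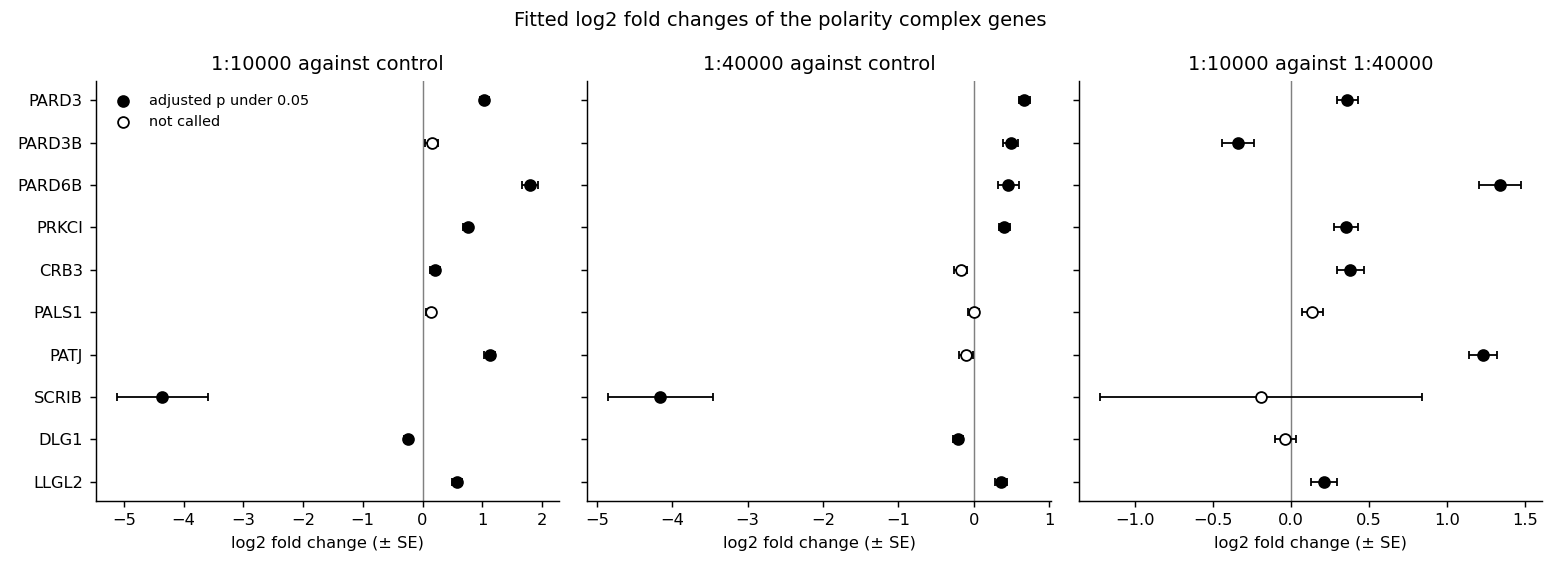
Fitted log2 fold changes (horizontal axis, ± SE; each panel has its own scale) of the 10 members in the 3 comparisons, filled where the adjusted p was under 0.05. Between the dilutions PARD6B (1.34) and PATJ (1.23) lie farthest from 0, and the SE of SCRIB spans 0.

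In the Crumbs module PATJ was higher at 1:10000 than in both other groups, by 2.18 times against control and 2.35 times against 1:40000. PATJ, the multi-PDZ scaffold that ties the complex to tight junction proteins, stood at 57.5 ± 5.03 CPM at 1:10000, 24.1 ± 2.48 at 1:40000 and 26.6 ± 2.56 in the controls. PALS1, the scaffold that bridges CRB3 and PATJ, was not called in any comparison, and CRB3, the epithelial Crumbs protein, was called higher at 1:10000 than in both other groups by a small amount.

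PATJ (ENSG00000132849, chromosome 1, 61742406 to 62178675, plus strand) read 29.6, 27, 28.4, 24 and 23.9 CPM in the controls, 59.9, 64.1, 50.4, 56.4 and 56.5 at 1:10000, and 28.4, 23.3, 22.9, 23.6 and 22.2 at 1:40000. Every 1:10000 library lay above all 10 others, and the other 2 groups overlapped. The log2 fold change was 1.12 ± 0.09 at 1:10000 against control (adjusted p = 5.86e-11) and 1.23 ± 0.09 between the dilutions (edgeR adjusted p = 3.31e-11). At 1:40000 against control it was -0.11 ± 0.09, with an approximate 95% interval from -0.29 to 0.08 (edgeR adjusted p = 0.348). The PATJ gene model changed version (21 to 22), which bears on the comparisons with control and not on that between dilutions, and 0.158% of its exon length overlaps an antisense gene.

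CRB3 (ENSG00000130545, chromosome 19, 6463777 to 6467221, plus strand) lay between 29.2 and 33.4 CPM in the controls, between 33.9 and 42.5 at 1:10000, and between 25.6 and 33 at 1:40000. The 1:10000 libraries lay above all others, by less than 1 CPM at the closest. The log2 fold change between the dilutions was 0.38 ± 0.09 (edgeR adjusted p = 0.000588). Against control it was 0.21 ± 0.09 at 1:10000 (adjusted p = 0.0352) and -0.17 ± 0.09 at 1:40000 (adjusted p = 0.104). The call at 1:10000 ended without control replicate 1 or 3 or 1:10000 replicate 2 or 4 (edgeR adjusted p = 0.09, 0.0591, 0.0733 and 0.0756), without the count filter (0.0655) and with replicates 3 to 5 alone (0.146), and without 1:40000 replicate 5 CRB3 was called lower at 1:40000 (-0.22, adjusted p = 0.0369). CRB3 has a pseudogene, CRB3P1, that could share reads.

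PALS1 (ENSG00000072415, named MPP5 in GENCODE 29, chromosome 14, 67241109 to 67335819, plus strand) lay between 80.8 and 91.9 CPM in the controls, between 86.4 and 108 at 1:10000, and between 77.6 and 94.6 at 1:40000, and the groups overlapped. Its log2 fold change was 0.14 ± 0.07 at 1:10000 against control (interval -0.00 to 0.27, adjusted p = 0.0911), -0.00 ± 0.07 at 1:40000 (interval -0.14 to 0.13) and 0.14 ± 0.07 between the dilutions (interval 0.00 to 0.27, edgeR adjusted p = 0.096). PALS1 was called at 1:10000 against control without 1:10000 replicate 5 (adjusted p = 0.0483) and without 1:40000 replicates 1 and 2 (0.0449), and between the dilutions without 1:40000 replicate 1 (0.0334), without replicates 1 and 2 of that group (0.0308) and with the replicate number as a block (edgeR adjusted p = 0.044).

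Among members with a promoter sequence, PATJ, CRB3 and PRKCI were higher at 1:10000 than at 1:40000. The DNA before the start sites of PATJ and CRB3 is shown because it holds the motif searched for more than once, while that of PRKCI holds 0 matches. CAGGTG, or CACCTG on the other strand, is the E-box read by the repressors SNAI1 and ZEB1, which are known to act on epithelial polarity genes. The sequences are those of RefSeq on GRCh38.p14, given on the plus strand, 5′ to 3′, with the E-box in capitals, and the motif was searched on both strands in the 250 bases before each start site. Of the 10 members, 6 had an entry (PATJ, CRB3, PALS1, PRKCI, PARD3B and DLG1). PARD3, PARD6B, LLGL2 and SCRIB had none. For PATJ, the 176 bases before its first annotated exon (chr1:61742230-61742405) hold 1 E-box:
PATJ: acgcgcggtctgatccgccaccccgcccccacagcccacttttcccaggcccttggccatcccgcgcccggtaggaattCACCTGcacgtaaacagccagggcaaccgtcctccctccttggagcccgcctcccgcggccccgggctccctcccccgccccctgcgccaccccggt
For CRB3, each of 5 E-boxes is shown with 7 bases on either side, at -228, -208, -147, -89 and -60 from the start site (20-base windows starting at 6464036, 6464056, 6464117, 6464175 and 6464204 on chromosome 19). All 5 also begin within an exon of a longer CRB3 transcript in GENCODE 29:
CRB3 at -228: cgcaatgCAGGTGtaaggtc
CRB3 at -208: cccctcaCACCTGcgcgctt
CRB3 at -147: cccgttaCAGGTGcgcccac
CRB3 at -89: cgaggctCAGGTGcacaagc
CRB3 at -60: gctctccCAGGTGagtgact
At least 1 E-box was present in 17.5% of 34788 such windows and at least 5 in 0.0661%. PATJ had 2 in its 250 bases, at -171 and -30, where 2.52% of windows have at least 2, PARD3B had 1, DLG1 had 1 in 1 of its 5 entries, and PRKCI and PALS1 had 0. These are matches of letters, and no binding was measured.

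The Scribble module gave 3 different patterns. LLGL2, the epithelial lethal giant larvae protein that atypical protein kinase C phosphorylates, was higher at both dilutions, DLG1, a PDZ scaffold of the lateral membrane, was slightly lower at both, and SCRIB, the scaffold that names the module, was near absent in all rinse aid files.

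LLGL2 (ENSG00000073350, chromosome 17, 75525080 to 75575208, plus strand) read 46.3, 48.8, 52.8, 59.1 and 55.2 CPM in the controls, 74.4, 72, 77.8, 84.1 and 84 at 1:10000, and 71.8, 50.8, 68, 67.2 and 75 at 1:40000. The 1:10000 libraries lay above all controls, while 1:40000 replicate 2, the shallowest library, fell among the controls. On the log2 scale LLGL2 rose by 0.57 ± 0.09 at 1:10000 and 0.36 ± 0.09 at 1:40000 against control (edgeR adjusted p = 2.01e-06 and 0.00099). Between the dilutions it was 0.21 ± 0.08 (edgeR adjusted p = 0.0335). That last call ended under upper-quartile scaling (adjusted p = 0.0978), without the count filter (0.237), without both 1:40000 replicates 1 and 2 (0.0586), and without any 1 of 6 libraries: control replicate 5 (0.0545), 1:10000 replicates 4 and 5 (0.0833 and 0.0814) and 1:40000 replicates 2, 3 and 4 (0.0639, 0.0514 and 0.0572).

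DLG1 (ENSG00000075711, chromosome 3, 197042560 to 197299300, minus strand) lay between 168 and 189 CPM in the controls, between 139 and 160 at 1:10000, and between 133 and 172 at 1:40000. The 1:10000 libraries lay below all controls, and the 1:40000 libraries overlapped both other groups. The log2 fold change was -0.25 ± 0.07 at 1:10000 (adjusted p = 0.00247), -0.21 ± 0.07 at 1:40000 (adjusted p = 0.0114) and -0.04 ± 0.07 between the dilutions (interval -0.17 to 0.10, edgeR adjusted p = 0.677). The 1:40000 call ended without 1:40000 replicates 1 and 2 (-0.11, adjusted p = 0.172) and without the count filter (-0.14, edgeR adjusted p = 0.164). An antisense gene, DLG1-AS1, covers part of its exons, 2.19% of their length together, and no strand setting is stated.

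SCRIB (ENSG00000180900, chromosome 8, 143790920 to 143815379, minus strand) had 134, 358, 164, 504 and 290 raw counts in the controls, or 26.8, 35, 36.4, 34.3 and 37.5 CPM. It had 1, 2, 22, 18 and 14 counts at 1:10000 (0.117, 0.407, 2.77, 2.75 and 2.17 CPM) and 29, 3, 77, 33 and 49 at 1:40000 (0.167, 1.15, 2.85, 3.32 and 5.02 CPM). All rinse aid libraries lay below all controls, and in both rinse aid groups replicates 1 and 2 lay below replicates 3 to 5. The log2 fold change was -4.35 ± 0.77 at 1:10000 and -4.16 ± 0.69 at 1:40000 (edgeR adjusted p = 0.000201 and 0.000251), and -0.19 ± 1.03 between the dilutions (interval -2.22 to 1.83, adjusted p = 0.891). Without 1:40000 replicate 1 the 1:40000 change against control was -3.34, and with replicates 3 to 5 alone the changes were -3.78 and -3.35, all still called lower. GENCODE 29 lists 8 SCRIB transcripts outside the primary assembly and 0 for the other 9 members. Aligner, annotation and exposure cannot be told apart in this difference.

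Near absence in the rinse aid files was shared by 2 of the 41 partner genes that passed the filter on low counts (of 49 listed), named here after their values were seen. How many of all tested genes were near absent in those files was not counted, so this is no result about the modules. DLG5, a DLG1 paralog, had 2019 counts over the 5 controls, 0 over the 1:10000 libraries and 1 over the 1:40000 libraries. Set against 3 counts over the 1:10000 group, DLG5 was 549-fold lower there, and the lower 95% limit of the ratio was 446. No fold is given for 1:40000, where 1 library held the single count. GENCODE 29 lists 10 DLG5 transcripts outside the primary assembly, and 18.0% of its exon length overlaps antisense genes. CDC42, the GTPase that activates the Par module and a gene most cells need, stood at 414 ± 13 CPM in the controls, 0.936 ± 0.299 at 1:10000 and 1.81 ± 1.02 at 1:40000 (log2 fold changes -8.83 ± 0.21 and -8.49 ± 0.19, edgeR adjusted p = 1.17e-16 and 3.96e-17). For CDC42 the annotation lists 0 such transcripts, 59.4% of its exon length overlaps other genes, its gene model changed version (17 to 18) and it has pseudogenes. The gene models of SCRIB (version 20) and DLG5 (version 17) did not change. The bearing of these traits on the counts was not tested, and aligner, annotation and exposure cannot be told apart here either. Between the dilutions CDC42 was not called (-0.35 ± 0.42, adjusted p = 0.5).

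**Figure D3:**
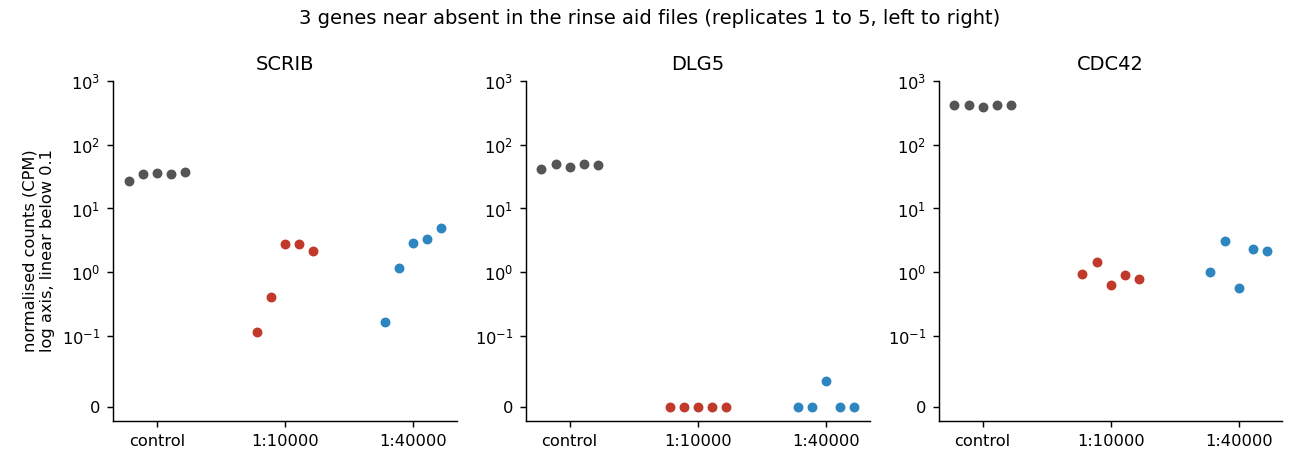
SCRIB, DLG5 and CDC42 in every library (normalised CPM on a log axis that is linear below 0.1). The controls lie between 26.8 and 426 CPM over the 3 genes, and no rinse aid library exceeds 5.02.

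Compared per kb of exon, the order of the members shifted between groups. In the controls PARD6B (21.0 ± 2.81 CPM per kb), CRB3 (20.1 ± 1.12), PRKCI (18.7 ± 2.06) and DLG1 (16.1 ± 0.84) led, with ranges that overlapped between neighbours, followed by PARD3 (13.6 ± 0.74) and PALS1 (9.89 ± 0.58), each apart from its neighbours. LLGL2 (6.63 ± 0.64), SCRIB (5.49 ± 0.68) and PARD3B (4.95 ± 0.45) overlapped in sequence, and PATJ was lowest (2.22 ± 0.21). At 1:10000 PARD6B led alone at 72.7 ± 12.4 CPM per kb, then PRKCI (31.6 ± 2.01), PARD3 (27.9 ± 2.00) and CRB3 (23.5 ± 2.19), whose ranges overlapped between neighbours. PATJ reached 4.79 ± 0.42 there, within the range of PARD3B (5.46 ± 0.65). At 1:40000 the first 4 were the same genes in the same order, but PARD6B (29.1 ± 5.41) no longer stood apart from PRKCI (24.8 ± 2.41).

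Ratios within a library, which no scaling between libraries can alter, separated 1:10000 from the other groups for 4 of the 5 pairs that leave out SCRIB. The PARD6B to PRKCI ratio, per kb of exon, was 1.02, 0.923, 1.31, 1.17 and 1.22 in the controls, 2.80, 2.12, 2.16, 2.19 and 2.19 at 1:10000, and 1.12, 1.41, 1.00, 1.17 and 1.15 at 1:40000. At 1:10000 PARD6B counts per kb of exon thus exceeded those of PRKCI in every library by at least 2.12 times, while controls and 1:40000 overlapped. The size of such a ratio, unlike its shift between groups, depends on the annotated exon lengths, and protein was not measured. The PATJ to PALS1 ratio was 0.377 to 0.51 at 1:10000, against 0.2 to 0.256 in the controls and 0.194 to 0.219 at 1:40000. The PARD3 to PARD3B ratio was 4.63 to 6.44 at 1:10000, against 2.56 to 3.15 in the controls and 2.86 to 3.36 at 1:40000. For the lethal giant larvae pair, LLGL2 to LLGL1, the ratio was 0.758 to 0.948 at 1:10000, against 0.377 to 0.477 and 0.426 to 0.568. The CRB3 to PALS1 ratio overlapped in all groups (1.77 to 2.24, 1.79 to 2.55 and 1.53 to 2.34). The DLG1 to SCRIB ratio was 2.7 to 3.54 in the controls and 17.2 to 697 in the rinse aid libraries, where SCRIB was near absent. These ratios were not tested, and the share of other gene pairs that separate in this way was not counted. Of single genes, 57.8% did not overlap between 1:10000 and control, and 40.3% between the dilutions. The pairs were set with earlier results known, and each ratio carries the changes of its 2 genes, so the separations are no further result about the modules.

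**Figure D4:**
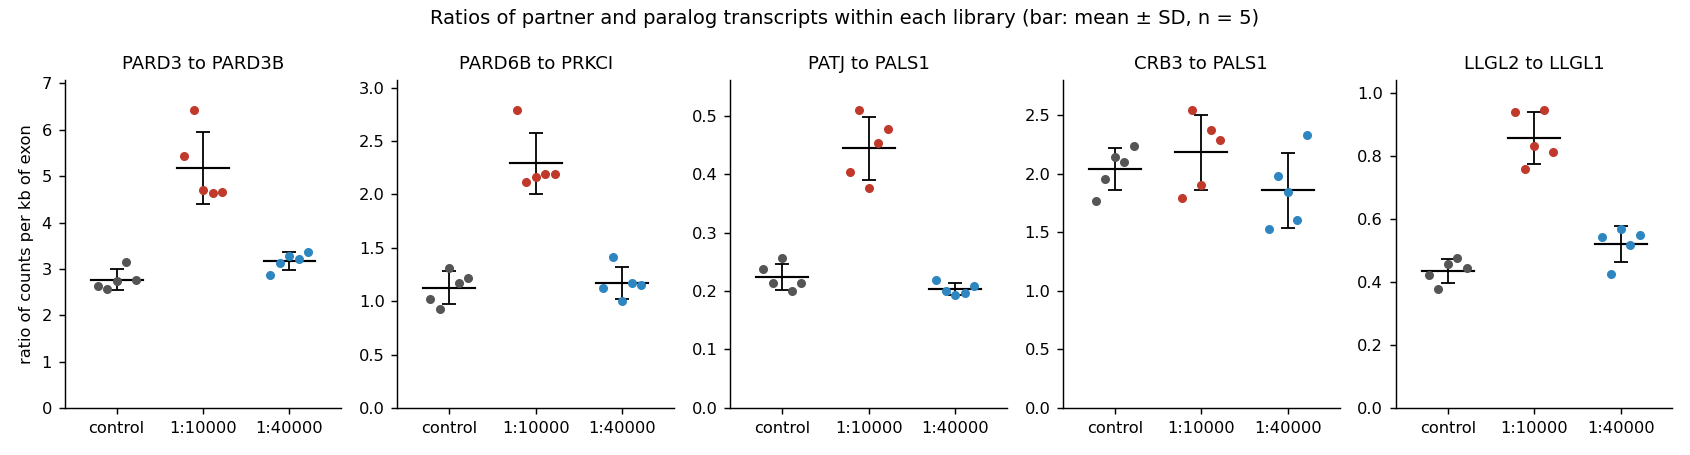
Ratio of 2 transcripts in each library (counts per kb of exon, vertical axes from 0) with the mean ± SD of each group. The 1:10000 libraries lie above all others for PARD3 to PARD3B, PARD6B to PRKCI, PATJ to PALS1 and LLGL2 to LLGL1, and overlap them for CRB3 to PALS1.

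Partner genes of the modules moved in both directions. Of 49 partners, 41 passed the filter on low counts, and 19 were called higher and 16 lower at 1:10000 against control, 10 and 10 at 1:40000, and 17 and 14 between the dilutions, where 71%, 52.1% and 57.3% of all tested genes were called. The partner medians were 0.16, 0.03 and -0.00 on the log2 scale. Of 10 Par partners tested, 5 were higher and 5 lower at 1:10000 against control (34.8% and 36.2% of all genes), 2 and 2 at 1:40000 (26.1% and 26%), and 4 and 2 between the dilutions (28.3% and 29%). RAC1, a GTPase related to CDC42 that binds PAR6, rose from 226 ± 13 CPM in the controls to 434 ± 47.8 at 1:10000 (0.94 ± 0.07, edgeR adjusted p = 2.95e-12) and 312 ± 8.10 at 1:40000 (0.46 ± 0.07, adjusted p = 1.89e-06). YWHAZ, a 14-3-3 adaptor, rose by 0.34 ± 0.06 and 0.15 ± 0.06 at 1:10000 and 1:40000, the second of which had an edgeR adjusted p of 0.0373 and was not called without control replicate 2 or any of 1:40000 replicates 2, 3 and 4 (0.134, 0.0672, 0.0726 and 0.0606), or with replicates 3 to 5 alone (0.0512). FRMD4B, a FERM protein, fell at both dilutions (-0.65 ± 0.09 and -0.33 ± 0.08). Of the PAR6 paralogs, PARD6A stood at 4.86 ± 1.17 CPM in the controls and 6.52 ± 1.43 at 1:10000, and PARD6G was under the filter at 0.524 ± 0.102 in the controls, 0.337 ± 0.224 at 1:10000 and 1.16 ± 0.505 at 1:40000.

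Of 13 Crumbs partners tested, 6 were higher and 4 lower at 1:10000 against control, 3 and 3 at 1:40000, and 6 and 6 between the dilutions, beside the same shares over all genes (34.8% and 36.2%, 26.1% and 26%, 28.3% and 29%). AMOTL2, an angiomotin-family scaffold, rose from 202 ± 14.1 CPM in the controls to 515 ± 11.7 at 1:10000 and 300 ± 44.9 at 1:40000, while its relative AMOT fell from 162 ± 7.94 to 92.3 ± 9.67 and 117 ± 8.31. ARHGAP17, a GTPase-activating protein for CDC42 and RAC1, fell from 143 ± 10.6 to 72.4 ± 5.32 and 97.7 ± 4.34. EZR, ezrin, the linker of apical membrane to actin, rose at 1:10000 (0.32 ± 0.06) and fell at 1:40000 (-0.25 ± 0.06, edgeR adjusted p = 0.000854). The PALS1 paralog MPP7 was higher at 1:10000 than at 1:40000 (0.76 ± 0.10, edgeR adjusted p = 1.71e-06), and PALS2 was lower (-0.28 ± 0.10, adjusted p = 0.0138), a call that ended without 1:10000 replicate 4 (0.057). CRB1 and MPDZ, a PATJ paralog, each had at most 1 count in any library, and CRB2 stood at 1.33 ± 0.32 CPM in the controls, 0.453 ± 0.309 at 1:10000 (-1.54 ± 0.41 against control, edgeR adjusted p = 0.00182) and 0.863 ± 0.232 at 1:40000 (adjusted p = 0.146). The CRB2 call rests on few reads, with 53 counts over the 5 controls and 15 over the 1:10000 libraries (1 to 6 in each).

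Several Crumbs partners were called at 1:10000 against control and not at 1:40000, and 4 are given here. Of these, EPB41L5, LIN7A and WWC1 were named after their values were seen. PATJ was called in the same way, but LIN7A was lower at 1:10000 where PATJ was higher. The share of all tested genes with these calls was not counted. Of all tested genes, 71% were called at 1:10000 and 52.1% at 1:40000 against control. EPB41L5, a FERM protein that binds Crumbs, stood at 112 ± 5.27 CPM in the controls, 234 ± 11 at 1:10000 and 109 ± 8.07 at 1:40000 (1.09 ± 0.06 between the dilutions, edgeR adjusted p = 3.14e-13). LIN7A, a small scaffold that binds PALS1, stood at 27.3 ± 3.70, 11.4 ± 2.85 and 29.9 ± 4.26 (-1.38 ± 0.14 between the dilutions, edgeR adjusted p = 1.36e-08). MPP7 stood at 104 ± 19.3, 179.9 ± 12.02 and 105 ± 10.6 CPM, and WWC1, a cytoplasmic scaffold of Hippo signalling, at 108 ± 5.24, 164 ± 5.13 and 116 ± 11.6 (0.49 ± 0.06 between the dilutions, edgeR adjusted p = 4.67e-07).

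Of 11 Scribble partners tested, 4 were higher and 4 lower at 1:10000 against control (34.8% and 36.2% of all genes), 4 and 3 at 1:40000 (26.1% and 26%), and 3 and 5 between the dilutions (28.3% and 29%). LLGL1, the paralog of LLGL2, was lower at 1:10000 than in the controls (77.1 ± 7.41 against 101 ± 6.46 CPM, -0.40 ± 0.07, edgeR adjusted p = 2.18e-05) and stood at 107 ± 6.42 at 1:40000. CASK, a scaffold of the lateral membrane, fell at 1:10000 (-0.41 ± 0.06) and rose at 1:40000 (0.24 ± 0.06), with -0.66 ± 0.06 between them (edgeR adjusted p = 5.24e-10). The planar polarity protein VANGL1 fell from 35.2 ± 2.67 CPM to 16.7 ± 1.27 and 24.8 ± 3.03, and VANGL2, near 1.54 CPM in the controls, rose to 4.70 ± 1.29 at 1:40000, with a weaker call at 1:10000 (edgeR adjusted p = 0.0292) that ended without control replicate 2, 3 or 5 or 1:10000 replicate 2 (0.0898, 0.0553, 0.0545 and 0.0682). The SCRIB relatives ERBIN and LRRC1 were higher at 1:10000 than at 1:40000 (0.34 ± 0.06 and 0.39 ± 0.08, edgeR adjusted p = 8.8e-05 and 0.000123), and LRRC7 was under the filter. Of the DLG1 paralogs, DLG3 stood at 57.6 ± 2.34, 65.3 ± 3.66 and 67.5 ± 5.03 CPM in control, 1:10000 and 1:40000, DLG2 at 3.05 ± 0.32, 3.47 ± 0.82 and 3.10 ± 0.31, and DLG4 under the filter.

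Of 7 tested polarity kinases and related regulators, 4 were higher and 3 lower at 1:10000 against control, 1 and 2 at 1:40000, and 4 and 1 between the dilutions, where 71%, 52.1% and 57.3% of all tested genes were called in either direction. Among the partners named above, the gene models of RAC1, EZR, LLGL1 and VANGL2 changed version between the control and rinse aid files, and RAC1, YWHAZ and CASK have pseudogenes that could share reads.

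**Figure D5:**
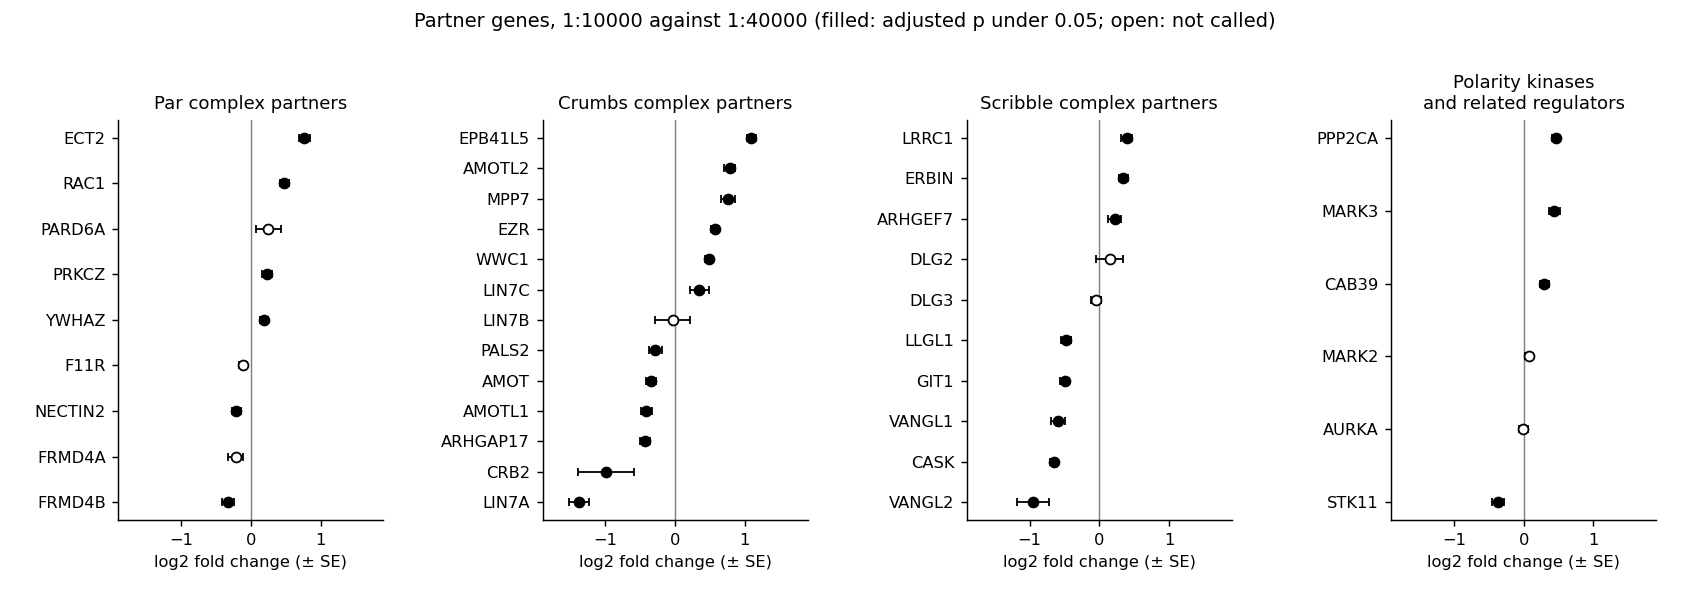
Log2 fold changes between the dilutions (1:10000 against 1:40000, ± SE) for tested partner genes in 4 lists, without DLG5 and CDC42, which were near absent in both groups. Positive values mean higher at 1:10000; EPB41L5 (1.09) and LIN7A (-1.38) mark the extremes of the Crumbs list.

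For 1 member of each module, the genes of at least 10 CPM whose log2 CPM followed it most closely over the 10 rinse aid libraries were sought among 9234 genes. These correlations are descriptions: all 10 libraries share the difference between dilutions and their scaling. PARD3 was followed by ATF2, a stress-responsive transcription factor (Pearson r = 0.986), NSD3, a histone methyltransferase (0.977), and IQCB1, a protein of the primary cilium (0.976). CRB3 was followed by MCRIP2 (0.943), the kinase DAPK3 (0.942) and NOP10, a small nucleolar ribonucleoprotein subunit (0.938). LLGL2 was followed by ADPRS (0.957), the lymphotoxin receptor LTBR (0.947) and INPP5E, a phosphoinositide phosphatase (0.947).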

How the data were processed

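The authors deposited raw counts per Ensembl gene, 1 file for each of 15 libraries. Per the file headers, control files came from RNA STAR (60649 genes) and rinse aid files from HISAT2 (61544 genes). Per the submitters' processing notes, cutadapt, STAR 2.7.9a, featureCounts, DESeq2 1.32.0 and the GRCh38 build were used. The annotation release and strand setting are not given in the sources used here. Genes were joined by identifier without version, leaving out Y copies of pseudoautosomal genes. Of 60557 shared identifiers, 3798 changed version.

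In R 4.3.3, edgeR 4.0.16 fitted 3 group means (TMM, filterByExpr, robust quasi-likelihood), a procedure tested on simulated data. The simulated libraries were independent, with the same spread for every gene and few changed genes. That test therefore does not cover the split between replicates or genes as variable as SCRIB. Each SE was derived from the F statistic and the fitted change. The 95% intervals of the changes take a normal multiple of this SE, so they are approximate and can be narrower than the test implies. For PALS1 between the dilutions the interval lay just above 0, while the unadjusted quasi-likelihood p was 0.0608. Alternatives used DESeq2 1.42.0, other scalings, no filter, fewer libraries and a replicate block. Exon lengths, coordinates and transcripts outside the primary assembly came from GENCODE 29. Intervals cover counting or fitting error only.

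The members, lists and tests were chosen with earlier results of these data known. Named are all members, partners called in every comparison, paralogs of members, and the 3 closest genes to PARD3, CRB3 and LLGL2; other names were chosen after their values were seen. A partner that this rule names is not reported here.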

Additional observations from a re-analysis of the deposited data

Results flagged for a closer look

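In 30 groups of 5 libraries (10 members in 3 groups), 3 held a library far from the others by Dixon's test at the 95% level, which chance gives in about 1 of 20 groups. PARD6B read 75.7 CPM in control replicate 2, with the next library at 102. PARD6B also read 447 CPM in 1:10000 replicate 1, with the next at 337. PATJ read 28.4 CPM in 1:40000 replicate 1, the deepest library, with the next at 23.6.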

How the results depend on the processing

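Counts of called genes and members stayed within 1.5 times their values under every alternative run. Leaving out each library in turn gave 9053 to 9555 genes at 1:10000 against control, 6254 to 6971 at 1:40000 and 7075 to 7624 between the dilutions, with 7 to 9, 7 to 8 and 6 to 8 members. Deviations of same-numbered libraries correlated at -0.05 to 0.06 between control and 1:10000, 0.06 to 0.13 between control and 1:40000 and 0.05 to 0.28 between the dilutions. Not every pair was over 0.1 and not every library correlated best with its own number, so the numbers were not taken as pairs. With the replicate block 9592, 7314 and 8012 genes and 8, 7 and 8 members were called, and among members the block changed only the PALS1 call given above. With replicates 3 to 5 alone, a setting chosen after seeing the data, 9196, 6830 and 7571 genes and 8, 7 and 6 members were called. The share of calls that were higher was 50.1% at 1:40000 against control and 49.3% between the dilutions, 58.2% and 43.7% under upper-quartile scaling, and 60.5% and 42.4% without the count filter, where the median of all genes shifted to 0.16 and -0.21. Changes near 0 turned direction with no call on either side. For PALS1 at 1:40000 against control, values were 0.0044 (median-ratio scaling), 0.0491 (upper quartile), 0.0751 (no filter), 0.0031 (DESeq2), 0.0102 (the 2 groups only) and 0.0071 (replicates 3 to 5), and -0.0446 to 0.0344 leaving out each library. In that comparison EPB41L5 was 0.0216 (upper quartile) and 0.0473 (no filter), MPP7 -0.0352 and DLG2 -0.0554 (replicates 3 to 5), and ERBIN -0.0797 there and -0.0545 without the deepest and shallowest 1:40000 libraries. DLG3 between the dilutions was 0.0287 and 0.0368 in those settings. Leaving out each library gave -0.0609 to 0.1101 for MPP7, -0.0679 to 0.0026 for EPB41L5, -0.0456 to 0.0845 for DLG2, -0.0201 to 0.0503 for ERBIN, and between the dilutions -1.0058 to 0.3273 for SCRIB and -0.0915 to 0.0134 for DLG1. The cause was not tested. Counting error is largest for SCRIB, with 1 to 77 counts in the rinse aid libraries, of which the deepest held 29. The other members had at least 61 counts in every library.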
